A study of Homo sapiens with 6 samples.

Results

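TXNIP, the gene of thioredoxin-interacting protein (NCBI gene 10628), was read by 2 of the 53617 probe sets on the arrays, and it is 1 of the 14884 gene symbols they carry. Its members are the probe sets annotated to TXNIP, and the gene was chosen by its measured difference between miR-135a-3p and miR-blank cells in these same arrays. That difference is therefore a description here and carries no test. The study transfected 3 cell lines of ovarian cancer (SKOV-3, OVCAR-3 and ES-2) with either miR-blank as the control or miR-135a-3p, the microRNA from the 3′ arm of the miR-135a hairpin, and hybridised total RNA of each line and transfection to 1 array. The 6 arrays thus give n = 3 lines for the transfection and 2 arrays for each line, and the transfected amount and the time of harvest are not given in the sources used here. In such bulk RNA, a change in the share of cells that express a gene and a change in its RNA per cell cannot be told apart.

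TXNIP is an alpha-arrestin that binds reduced thioredoxin and blocks its activity, and it lowers glucose uptake by promoting the internalisation of glucose transporters. Its transcription follows glucose supply: the sugar-sensing factors MondoA (MLXIP) and ChREBP (MLXIPL), each paired with MLX, bind carbohydrate response elements (ChoREs) in its promoter. The ubiquitin ligase ITCH marks the protein for degradation, and AMP-activated kinase phosphorylates it. It is widely described as a growth-restraining gene with low levels in many tumours.

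In the RefSeq annotation of GRCh38.p14, TXNIP lies on the minus strand at chr1:145992435-145996579, a span of 4145 bases with 2 transcripts. The ChoRE was searched for as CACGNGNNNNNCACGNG, a pair of E-box-like sites with 5 bases between them, on both strands of the RefSeq windows that run from 250 bases before to 50 bases after a transcription start. A match was present in 20 of 35116 windows (0.057%), and 1 of those was the window of the upstream TXNIP start. The 250 bases before that start (chr1:145996580-145996829, minus strand) are printed because they hold this pair, with the 250 bases before the start of ARRDC4 (chr15:97960453-97960702, plus strand), the relative of TXNIP that also answers to MondoA. Capitals mark the ChoRE pair in TXNIP and the E-box CACGTG in ARRDC4. The mature miR-135a-3p (chr3:52294232-52294253, minus strand) is printed as the agent of the study, with its seed, bases 2 to 8, in capitals.
TXNIP: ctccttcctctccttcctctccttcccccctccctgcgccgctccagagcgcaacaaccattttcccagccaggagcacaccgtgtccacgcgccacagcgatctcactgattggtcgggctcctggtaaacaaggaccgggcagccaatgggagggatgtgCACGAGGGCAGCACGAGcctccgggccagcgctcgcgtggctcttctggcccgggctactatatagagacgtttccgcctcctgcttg
ARRDC4: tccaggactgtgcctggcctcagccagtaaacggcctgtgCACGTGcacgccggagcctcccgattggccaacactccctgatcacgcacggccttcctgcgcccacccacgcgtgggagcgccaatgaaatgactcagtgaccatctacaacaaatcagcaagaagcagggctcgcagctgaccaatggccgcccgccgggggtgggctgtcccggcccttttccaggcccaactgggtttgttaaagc
hsa-miR-135a-3p: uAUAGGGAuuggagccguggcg

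The ChoRE pair of TXNIP spans positions -88 to -72, counted with -1 as the base before the start, and reads in the direction of the gene. A CCAAT box, the motif of the factor NF-Y, lies on each side of a forkhead motif upstream of it: ATTGG, its reverse complement, at -140 to -136 and CCAAT at -105 to -101. The forkhead motif GTAAACA, the core that FOXO factors bind, lies at -124 to -118, and it was searched for after the TXNIP sequence had been seen. Among all windows, 34.6% held CCAAT, 3.42% held GTAAACA and 7.26% held the E-box CACGTG on either strand. The window of the downstream TXNIP start, 835 bases away, held none of the 4 motifs.

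The ARRDC4 window held the E-box at -210 to -205 and 3 CCAAT boxes, and no ChoRE pair of the spacing searched. ARRDC1 and the downstream start of ARRDC2 each held 1 CCAAT box, at -80 to -76 and -93 to -89. ARRDC3 held a CCAAT box at -241 to -237 before its upstream start and a forkhead motif at -29 to -23 before its downstream start. TXNIP was the 1 gene with a ChoRE pair among the 137 genes of the pathway lists, itself included, that had a window. The marker lists were left out of that count. These matches are letters in a window, and factor binding was not measured.

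**Figure D1:**
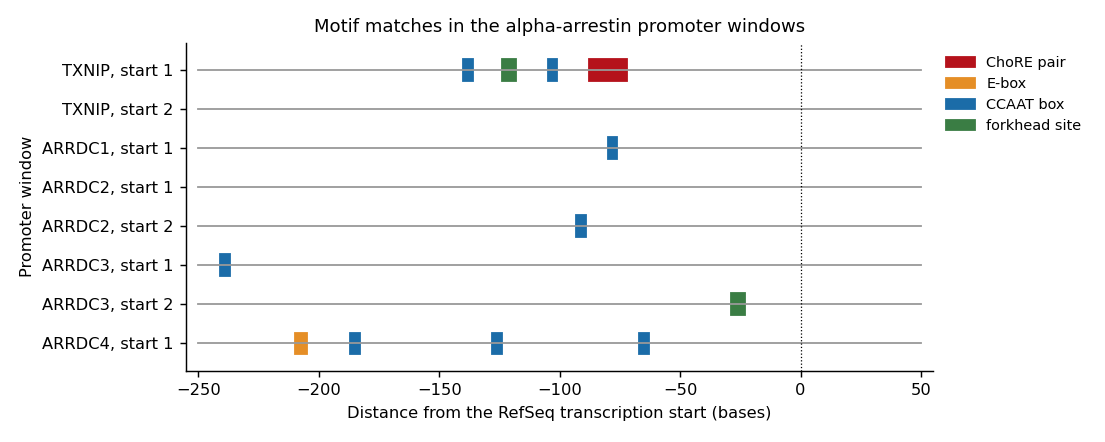
Motif matches in the RefSeq promoter windows of TXNIP and its alpha-arrestin relatives, drawn to scale against the distance from the transcription start in bases (x axis), with 1 line for each start. The ChoRE pair (red) is present before the upstream TXNIP start alone, and ARRDC4 carries the E-box (orange) and 3 CCAAT boxes (blue).

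The brighter TXNIP probe set gave higher signal after miR-135a-3p in each of the 3 lines. Signals are normalised log2 values, on which a step of 1 is a doubling. In ES-2 the signal was 8.25 with miR-blank and 9.02 with miR-135a-3p, a difference of 0.77 or 1.71-fold. In OVCAR-3 it was 6.65 and 6.97, a difference of 0.32 or 1.25-fold. In SKOV-3 it was 6.58 and 8.41, a difference of 1.83 or 3.54-fold. The levels of the 2 transfections overlapped across lines, since the ES-2 array with miR-blank stood above OVCAR-3 with miR-135a-3p, so the pattern is one within lines. The mean difference was 0.97 ± 0.77 (SD, n = 3 lines), or 1.96-fold, from a miR-blank mean of 7.16 ± 0.94 (SD, n = 3) to a miR-135a-3p mean of 8.13 ± 1.05 (SD, n = 3). SKOV-3 gave most of that mean: without SKOV-3 the mean difference was 0.55, and without OVCAR-3 it was 1.299.

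The second probe set gave the same direction in each line at a lower signal. Its signal went from 5.38 to 6.63 in ES-2 (2.38-fold), from 3.96 to 4.14 in OVCAR-3 (1.13-fold) and from 3.79 to 5.37 in SKOV-3 (2.98-fold). The mean difference was 1.002 ± 0.73 (SD, n = 3 lines), within the spread between lines of the value from the brighter probe set. The array medians lay between 4.16 and 4.23, so this probe set was below its array's median on both OVCAR-3 arrays and on the SKOV-3 array with miR-blank. The probe sets moved together over the 6 arrays (Pearson r = 0.981, a description over arrays that share lines), with a gap of 2.39 to 3.04 between them. Because probe sets differ in how brightly they bind, that gap gives no ratio of transcripts.

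**Figure D2:**
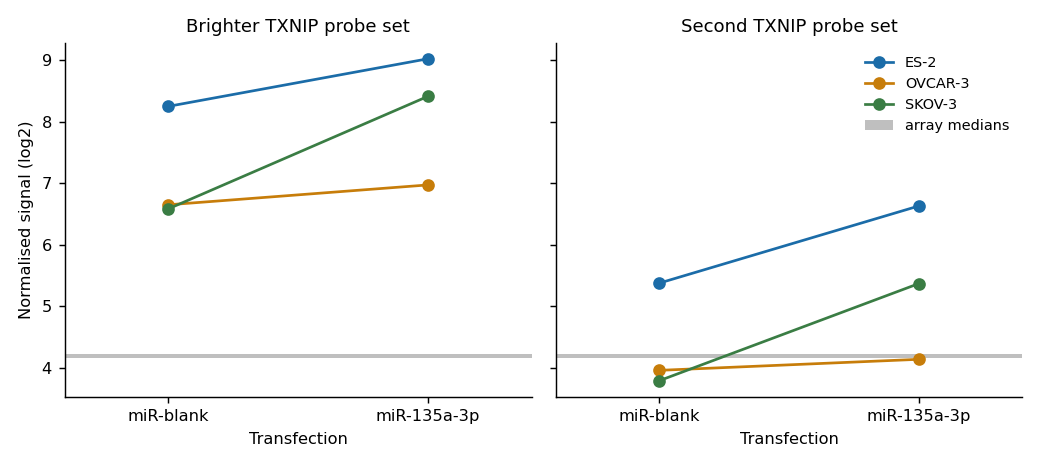
Normalised log2 signal of TXNIP (y axis) on the 6 arrays, with miR-blank and miR-135a-3p joined by a line for each cell line, for the brighter probe set (left) and the second (right). Each point is 1 array, and the grey band covers the 6 array medians (4.16 to 4.23). SKOV-3 has the steepest line for both probe sets and OVCAR-3 the flattest.

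Each line was read against the other genes of similar signal. These show how far the miR-135a-3p and miR-blank arrays of that line differ for a gene of that brightness. In ES-2, 1104 genes had a mean within 0.5 log2 units of TXNIP. Their differences had an SD of 0.24, and 2 of them (0.181%) were higher than the 0.77 of TXNIP. In SKOV-3 the 1828 genes of similar signal spread more widely, with an SD of 0.54, and 8 of them (0.438%) lay above the 1.83 of TXNIP. OVCAR-3 differed from both: of 1991 genes of similar signal, 97 (4.87%) exceeded the 0.32 of TXNIP. The differences of the 1991 had an SD of 0.34. MIR135A1, the hairpin gene of the transfected microRNA, is among them with a difference of 9.94, which raises that SD. It is not among the genes of similar signal in ES-2 or SKOV-3, whose highest differences were 0.96 and 3.02. The OVCAR-3 value thus lay inside the band that held the central 95% of those genes, -0.57 to 0.43, while the ES-2 and SKOV-3 values lay above the upper ends of theirs, 0.43 and 1.09.

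The second probe set ranked in the same way. Its difference was behind 1 of 2291 genes of similar signal in ES-2 and behind 3 of 2568 in SKOV-3. In OVCAR-3, 829 of 2542 (32.6%) were higher. At both probe sets the OVCAR-3 difference lay inside the band that held the central 95% of genes of similar signal. The spread of those genes holds effects of the transfection as well as differences between arrays. No replicate arrays of a line exist to separate them or to measure the spread for TXNIP itself. As the gene was chosen by these differences, its places among other genes are a description.

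Over the 8620 genes with a mean signal of at least 5, TXNIP, read from its brighter probe set, was at least 2-fold higher in SKOV-3, as were 202 genes (2.34%). It was not in ES-2 or OVCAR-3, where 14 (0.162%) and 25 genes (0.29%) were. TXNIP was also among the 822 genes (9.54%) that were higher in all 3 lines, beside 1157 (13.4%) that were lower in all 3. No other protein-coding gene of the 7935 compared had a larger difference than TXNIP in every line at once. Since the gene was chosen on this contrast, nothing is read from those shares or from that standing.

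**Figure D3:**
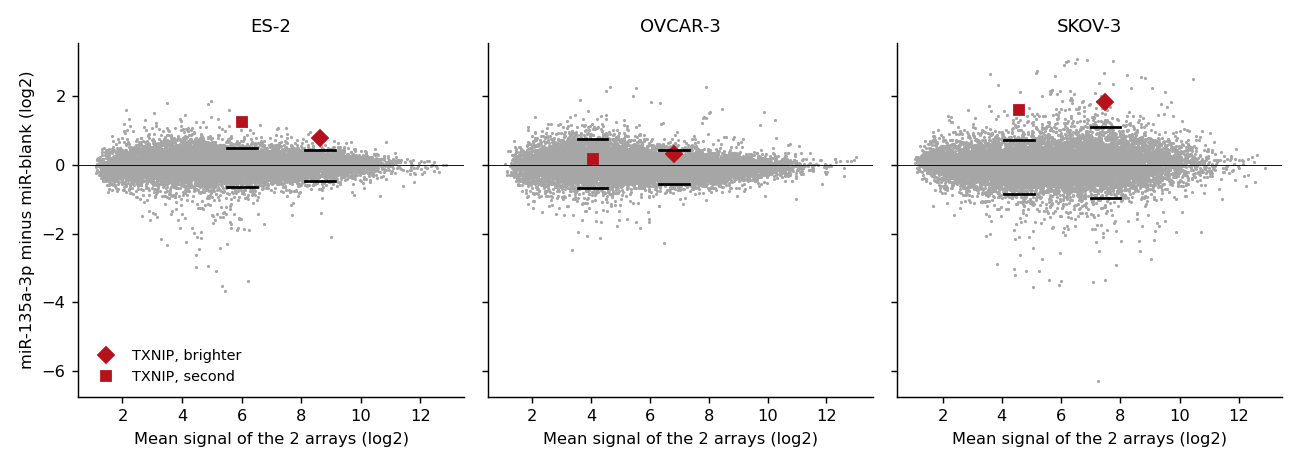
Difference between miR-135a-3p and miR-blank (log2, y axis) against the mean signal of the 2 arrays of a line (log2, x axis) for 1 probe set a gene (grey points) and for the TXNIP probe sets (red), in each line. Black bars bound the central 95% of genes within 0.5 log2 units of each TXNIP probe set. MIR135A1, at differences near 10, is left out of the plot but is counted in the OVCAR-3 bars of the brighter probe set. TXNIP lies above the bars in ES-2 and SKOV-3 and between them in OVCAR-3.

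Across the arrays as a whole, the transfection was visible at the hairpin gene MIR135A1, whose signal moved from 1.75 to 12.57 in ES-2, then from 2.26 to 12.20 for OVCAR-3 and from 2.07 to 11.58 for SKOV-3. It was the 1 gene of 8620 (0.0116%) that passed an adjusted p of 0.05 in limma with the line as a block, and 251 genes had an unadjusted p under 0.05. Of 10 ovarian carcinoma markers, 9 were named on the array and none was below the median on all arrays, but EPCAM was at 3.78 to 4.32, and PAX8 at 4.12 to 4.80 in ES-2 and OVCAR-3 against 8.80 and 8.12 in SKOV-3. Their summed log2 signal was 48.6 to 55.6 with miR-blank and 51.8 to 57.6 with miR-135a-3p. Among leukocyte markers, 4 of 7 were named, LYZ and CD14 were below the median on all 6 arrays, and the sum was 19.0 to 22.5 with miR-blank and 19.3 to 22.6 with miR-135a-3p. CD68, a lysosomal protein of macrophages that many other cells also hold, went from 7.96 to 10.20 in SKOV-3 alongside TXNIP, and its part in the TXNIP value was not tested. Endothelial markers (3 of 5 named, sums of 12.3 to 13.2 and 12.6 to 12.9) and fibroblast markers (2 of 6 named, DCN below the median on all arrays, sums of 4.75 to 7.95 and 4.85 to 6.17) had no tested member, although LUM, a matrix proteoglycan, went from 6.05 to 2.84 in SKOV-3.

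The level of TXNIP between lines was tested in limma with the transfection as a block and Benjamini-Hochberg adjustment over 8620 genes. Without replicate arrays, the error of that fit comes from how the transfection difference varied between lines. TXNIP was chosen by those same differences, and the variation of a line's level between cultures was not measured. ES-2 stood highest at 8.63 (SD 0.55 over its 2 arrays), followed by SKOV-3 at 7.50 (SD 1.29) and OVCAR-3 at 6.81 (SD 0.23). ES-2 exceeded OVCAR-3 by 1.82 (SE 0.34, limma adjusted p = 0.00956), or 3.54-fold, and in both transfections, by 1.60 with miR-blank and 2.05 with miR-135a-3p. That contrast called 1420 genes (16.5%), where a call needs both an adjusted p under 0.05 and a fold of 2 or more. Without the OVCAR-3 array with miR-135a-3p, the TXNIP difference was 1.33 and its limma adjusted p was 0.0996.

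ES-2 and SKOV-3 did not pass the threshold, with a difference of 1.14 (SE 0.34, limma adjusted p = 0.0586), in a contrast that called 1046 genes (12.1%). The gap was 1.66 on the miR-blank arrays and 0.61 on the miR-135a-3p arrays. It passed in the fit without the SKOV-3 array with miR-135a-3p, at 1.78 (limma adjusted p = 0.000483). OVCAR-3 and SKOV-3, neighbours in the order, differed by -0.69 (SE 0.34, limma adjusted p = 0.194), where 1255 genes (14.6%) were called. With miR-blank their TXNIP signals were 0.07 apart, and with miR-135a-3p OVCAR-3 minus SKOV-3 was -1.44. Without the SKOV-3 array with miR-blank the contrast was -1.33 (limma adjusted p = 0.00124), so the place of SKOV-3 between the other lines rests on which of its arrays is read. The second probe set gave the same order, 6.004, 4.58 and 4.05.

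The genes that work with TXNIP were read from 15 lists with 161 genes, of which the array names 87 and 76 entered the fit. Between transfections none passed in limma, 3 had an unadjusted p under 0.05, and the lowest adjusted p was 0.999. Of the 76, 7 (9.21%) were higher and 12 (15.8%) lower in all 3 lines, close to the 9.54% and 13.4% of all genes. Sets of 3 differences, each miR-135a-3p minus miR-blank on the log2 scale, are given from here on for ES-2 first, then OVCAR-3, then SKOV-3. The median differences of the 76 were 0.01, -0.02 and -0.05, against -0.01, -0.05 and 0.02 over all genes tested. Quantile normalisation of the arrays turned the counts of higher and lower genes to 10 and 8, and cyclic loess to 10 and 6. Genes outside the naming rule (TXN, MLXIP, MLXIPL, MLX and MNT) are given for their role, with their values known.

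Among the other alpha-arrestins, 5 were named and 4 tested, and their SKOV-3 differences ran from -0.86 to 0.90. ARRDC4, which like TXNIP lowers glucose uptake, had signals of 6.16 and 6.31 in ES-2, of 6.40 and 6.39 in OVCAR-3, and of 5.10 and 5.999 for SKOV-3, with miR-blank first. Its differences of 0.16, -0.02 and 0.90 were in the order of those of TXNIP, with almost none in OVCAR-3. Under quantile normalisation and cyclic loess its OVCAR-3 difference was above 0 as well. ARRDC3, an adaptor for beta-adrenergic receptor and integrin turnover, was lower in all 3 lines (-0.05, -0.11 and -0.86), from 8.21 to 7.35 in SKOV-3. ARRDC1, which drives the budding of small vesicles at the plasma membrane, went from 7.74 to 7.14 in SKOV-3, with 0.05 and 0.10 in ES-2 and OVCAR-3. ARRDC2 had differences of -0.004, -0.15 and 0.25, and ARRDC5 was below the array median on 4 arrays. None of the 4 tested relatives passed in limma (adjusted p = 0.999 for each).

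Between lines, these relatives did not repeat the order of TXNIP. ARRDC1 in OVCAR-3 stood below its level in SKOV-3, with SKOV-3 at 7.44 and OVCAR-3 at 6.25 (limma adjusted p = 0.0101). ARRDC4 stood at 6.24 in ES-2, 6.39 for OVCAR-3 and 5.55 for SKOV-3, and its largest gap did not pass (limma adjusted p = 0.0504). ARRDC2 stood at 5.96 in ES-2, 6.26 for OVCAR-3 and 6.65 for SKOV-3. Its ES-2 minus SKOV-3 difference was -0.68 (limma adjusted p = 0.0366), under the 2-fold limit. ARRDC3 was within 0.50 log2 units over all 3 lines.

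The thioredoxin system, the redox pathway that TXNIP restrains, had 9 tested members and none passed. TXN, thioredoxin itself, was among the bright genes at 11.27 and 11.35 in ES-2, 11.11 and 11.29 for OVCAR-3, and 11.61 and 11.41 for SKOV-3. Its differences of 0.09, 0.18 and -0.20 were small beside those of TXNIP in ES-2 and SKOV-3. TXNRD1, the cytosolic reductase that recharges thioredoxin, had differences of 0.17, 0.40 and -0.33, and the mitochondrial thioredoxin TXN2 had 0.01, -0.03 and 0.13. TXNRD3, a reductase best known from testis, had 0.28, -0.04 and 0.36, and TXNL1, a thioredoxin-like protein of the proteasome, had 0.25, -0.24 and 0.38. GLRX2, a mitochondrial glutaredoxin, was the 1 member higher in all 3 lines, by 0.16, 0.05 and 0.45. Between lines ES-2 minus OVCAR-3 was -0.99 for TXN2 (limma adjusted p = 0.00547), under the 2-fold limit. NXN, nucleoredoxin, was the 1 member called in that contrast, with ES-2 above OVCAR-3 by 1.08 (limma adjusted p = 0.0102), as for TXNIP.

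Peroxiredoxins and the proteins that renew them are the peroxide scavengers fed by thioredoxin. All 9 named members were tested, none passed, and the list median was 0.04, 0.09 and 0.05. SRXN1, sulfiredoxin, had 0.65 in SKOV-3 with 0.04 and -0.08 in the other lines. SESN1, a p53-responsive sestrin, was higher in all 3 lines by 0.06, 0.23 and 0.18. SESN3, a sestrin under FOXO control, had 0.37, -1.20 and -0.66. With miR-135a-3p it was at 4.08 in OVCAR-3 and 3.85 in SKOV-3, below the medians of those arrays. SESN3 was the gene of this group with the widest range between lines, 8.25 in ES-2 against 4.68 for OVCAR-3 and 4.18 for SKOV-3, and ES-2 exceeded both (limma adjusted p = 0.000674 and 0.000768).

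The sugar-sensing factors upstream of TXNIP gave no common direction. MLXIP, the gene of MondoA, had differences of -0.21, -0.42 and 0.11, and its partner MLX had -0.04, -0.33 and 0.63. MLXIPL, the gene of ChREBP, was near the lower limit of the tested range, at 4.87 on both ES-2 arrays, and had 0.00, 0.09 and -0.23. MYC, the growth-promoting transcription factor of the MAX network that is described as a repressor of TXNIP, was lower in all 3 lines. Its signal was 9.79 and 9.43 in ES-2, 8.66 and 8.14 for OVCAR-3, and 9.34 and 8.88 for SKOV-3. The mean difference of MYC was -0.44 ± 0.08 (SD, n = 3 lines; limma adjusted p = 0.999), the same sign under each normalisation. MXI1, a MAX partner that opposes MYC, had -0.15, 0.22 and -1.14, from 7.65 to 6.52 in SKOV-3. Of the 11 tested members of the network, 2 were lower in all 3 lines and none higher, with medians of -0.15, -0.33 and 0.04. The second of these, MNT, a MAX partner that represses MYC targets, was no longer lower in every line under quantile normalisation or cyclic loess.

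Of 5 other tested genes that MondoA or ChREBP drive, ARRDC4 among them, 2 were lower in all 3 lines, none was higher in all 3, and none passed in limma. HK2, a hexokinase that traps glucose in the cell, went from 8.98 to 9.46 in ES-2 and from 6.59 to 7.71 in SKOV-3, but from 8.19 to 7.76 in OVCAR-3. KLF10, a TGF-beta-induced zinc finger factor, was lower in all 3 lines, from 8.97 to 8.80 in ES-2, 7.74 to 7.16 for OVCAR-3 and 9.88 to 9.16 for SKOV-3. The mean difference of KLF10 was -0.49 ± 0.28 (SD, n = 3 lines; limma adjusted p = 0.999). FASN, fatty acid synthase, had differences of -0.41, -0.08 and -0.09, although under cyclic loess it was no longer lower in every line. Between lines HK2 had ES-2 above OVCAR-3 by 1.25 (limma adjusted p = 0.0377) and above SKOV-3 by 2.07 (limma adjusted p = 0.00842), while KLF10 in OVCAR-3, at 7.45, was below both ES-2 at 8.88 (limma adjusted p = 0.0025) and SKOV-3 at 9.52 (limma adjusted p = 0.000726).

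The 20 genes with a ChoRE pair in their window include 9 tested genes beside TXNIP. None of the 9 passed in limma. Of them, 2 (22.2%) were higher in all 3 lines and none lower, against 9.54% and 13.4% of all genes. Their median differences were -0.004, 0.09 and 0.20, against -0.01, -0.05 and 0.02 over all genes tested. In SKOV-3 TXNIP, chosen by its differences, had the highest of the 10, so nothing is read from that place. TIGD1, a transposase-derived gene named after its values were seen, followed at 1.65. TIGD1 had -0.18 in ES-2 and 0.10 in OVCAR-3.

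**Figure D4:**
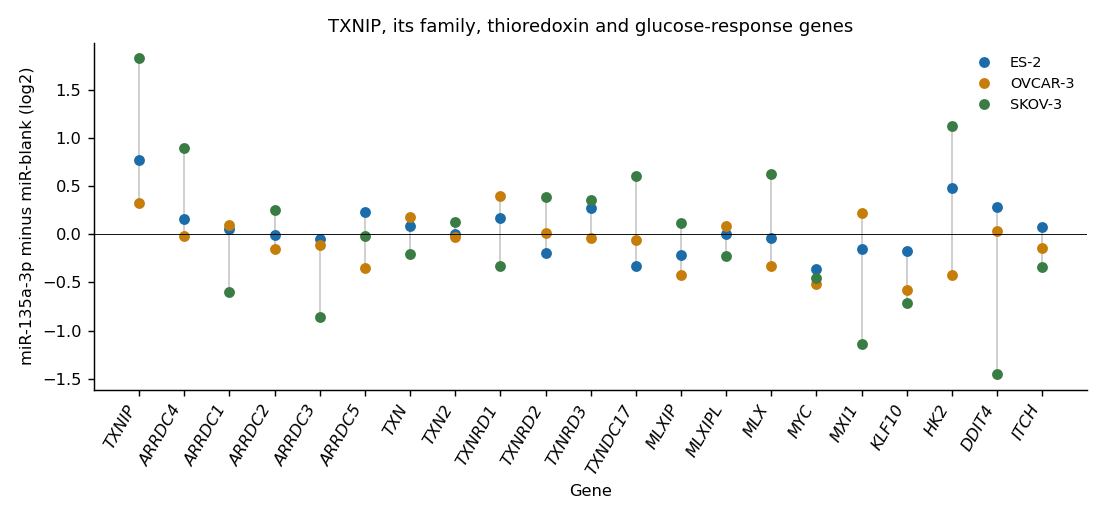
Difference between miR-135a-3p and miR-blank (log2, y axis) in each of the 3 lines (points) for TXNIP, the alpha-arrestins, the thioredoxin system, the sugar-sensing factors and other related genes (x axis), with a grey line from the lowest to the highest line. Among the genes drawn, TXNIP has the highest SKOV-3 point, at 1.83, and DDIT4 the lowest, at -1.45; DUSP1, at -1.96, is not drawn.

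The ligases of the NEDD4 family, ITCH among them, had 5 tested members with none passing. ITCH had differences of 0.08, -0.14 and -0.34 from signals of 9.63 to 10.05. SMURF1, a ligase of the BMP and TGF-beta pathway, had -0.43, -0.01 and -0.21, and it was not below 0 in every line under quantile normalisation or cyclic loess. SMURF2 differed between lines, at 10.83 in ES-2, 7.55 for OVCAR-3 and 9.38 for SKOV-3, and each contrast passed (limma adjusted p = 0.000145, 0.00604 and 0.00193). Of the genes around AMP-activated kinase, only STK11, the kinase that activates it, was named, with differences of -0.06, -0.06 and -0.08. The hexose transporters that TXNIP controls were not analysed here, as none of the 13 listed was named in the annotation used.

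The NLRP3 inflammasome, which TXNIP is described as activating, had 2 tested members, NEK7, a kinase that NLRP3 needs (0.10, -0.17 and 0.22), and GSDMD, the pore protein of pyroptosis (0.03, 0.87 and 0.31). The glucocorticoid and FOXO targets, a group in which TXNIP is often counted, had SKOV-3 differences from -1.96 to 0.18 over their tested members. SGK1, a growth-regulating kinase named after its values were seen and under the limit for testing, had -0.62, 0.66 and 1.43. DUSP1, a phosphatase of MAP kinases, went from 10.86 to 8.90 in SKOV-3 and had 0.31 and 0.35 in ES-2 and OVCAR-3. FOXO1 had -0.43, 0.26 and -0.77, BCL6 had 0.30, 0.43 and -0.58, and the clock gene PER1 had -0.29, -0.23 and -0.22. Among 11 tested members, none passed, and 2 were higher and 1 lower in all 3 lines. The median was 0.08, 0.30 and -0.58, against -0.01, -0.05 and 0.02 over all genes tested. Most of the tested genes were thus below their control in SKOV-3, read from 1 array for each transfection. Any relation to TXNIP was not tested.

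Of 7 tested NRF2 targets, the antioxidant programme, 1 was higher and 2 were lower in all 3 lines. HMOX1, heme oxygenase, had 0.33, 0.06 and 0.08, and OSGIN1, an oxidative stress-induced growth inhibitor, had -0.22, -0.02 and 0.68. COPS5, a signalosome subunit, was the 1 tested member of the cell cycle inhibitor list (0.15, 0.08 and -0.05). Among stress relatives, DDIT4, an mTORC1 inhibitor that often moves with TXNIP under stress, went from 9.65 to 8.20 in SKOV-3 (-1.45), opposite to TXNIP, with 0.28 and 0.03 in ES-2 and OVCAR-3. DDIT3, the ER stress factor CHOP, was higher in all 3 lines by 0.23, 0.42 and 0.52. XBP1, another ER stress factor, had 0.10, -0.27 and -0.51. Of 9 tested glycolysis genes, 1 was higher and 1 lower in all 3 lines, with medians of 0.04, -0.07 and 0.05, and HK1 was the higher one (0.04, 0.15 and 0.47). No gene of these lists passed in limma.

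Between lines, where the fit calls many genes, the listed genes were called about as often as all genes. ES-2 against OVCAR-3 called 15 of 76 (19.7%, against 16.5% of all genes), 10 of them higher in ES-2. ES-2 against SKOV-3 called 8 (10.5%, against 12.1%), and OVCAR-3 against SKOV-3 called 11 (14.5%, against 14.6%). MYC and HK2 were among the 10 with ES-2 above OVCAR-3, as for TXNIP (MYC by 1.21, limma adjusted p = 0.00238). The other 5 of the 15, ACACB, FASN, HMOX1, KLF9 and KLHL24, were lower in ES-2.

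Genes with a profile most like that of TXNIP were taken from the 7935 protein-coding genes by Pearson r over the 6 arrays. ZEB1, a repressor of epithelial genes, was closest (r = 0.994), with 7.26 and 7.45 in ES-2, 6.86 and 6.86 for OVCAR-3, and 6.77 and 7.27 for SKOV-3. Its differences of 0.19, 0.00 and 0.49 have the same order as those of TXNIP at a smaller size. PEX16, a peroxisome assembly protein (r = 0.985), RUVBL1, a helicase of chromatin remodelling complexes (r = 0.979), SFRP5, a secreted WNT antagonist (r = 0.979), EPG5, an autophagy tether (r = 0.974), and BZW1, a translation regulator (r = 0.972), came next. EPG5 had the largest differences of these, 0.44, 0.06 and 0.86. In all, 24 genes reached r of 0.95, and 13 of these were higher in all 3 lines. The arrays of a line share their cells, so these r values, over 6 arrays and 3 lines, are a description.

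By the distance between the 3 differences of a gene and those of TXNIP, FAT4, an atypical cadherin, was closest (0.42 log2 units). Its signal went from 7.70 to 8.33 in ES-2, from 4.43 to 4.84 in OVCAR-3 and from 5.18 to 6.62 in SKOV-3. FRRS1, a ferric reductase, had 0.74, 0.02 and 2.14, MSLN, mesothelin, 0.34, 0.18 and 1.41, and INO80C, a chromatin remodeller subunit, 0.25, 0.07 and 1.62. In OVCAR-3 FRRS1 was at 3.31 and 3.32, below the array medians, so a change there could hardly be seen. DKK1, a secreted WNT inhibitor, had 0.46, -0.23 and 1.86, and TMEM45A 0.75, 0.23 and 1.18. None of these genes passed in limma between transfections (adjusted p = 0.999), and the lists by profile and by difference hold different genes.

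Among the genes named in the annotation used, those nearest to TXNIP on chromosome 1 were read for a change around the locus. The 4 before it in coordinate order were RBM8A, a core protein of the exon junction complex (differences of 0.27, -0.29 and 0.48), LIX1L (0.35, -0.14 and -0.16), ANKRD34A (-0.18, -0.32 and -0.78) and POLR3GL, a subunit of RNA polymerase III (0.41, 0.37 and 0.01). POLR3GL was the 1 tested neighbour that was higher in each line, and it was nearly equal in SKOV-3, where TXNIP differed most. After TXNIP lay HJV, a regulator of iron uptake, which was below the median on 5 arrays, NOTCH2NLA (0.16, 0.25 and -0.51), CHD1L, a chromatin remodeller (0.06, -0.15 and -0.13), and FMO5, which was below the median on all 6. CHD1L and FMO5 start at chr1:147172747 and chr1:147184305, far from TXNIP, which ends at 145996579. NOTCH2NLA has near-identical copies that probes may not tell apart. No tested neighbour passed in limma, and none had a SKOV-3 difference above 0.48.

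**Figure D5:**
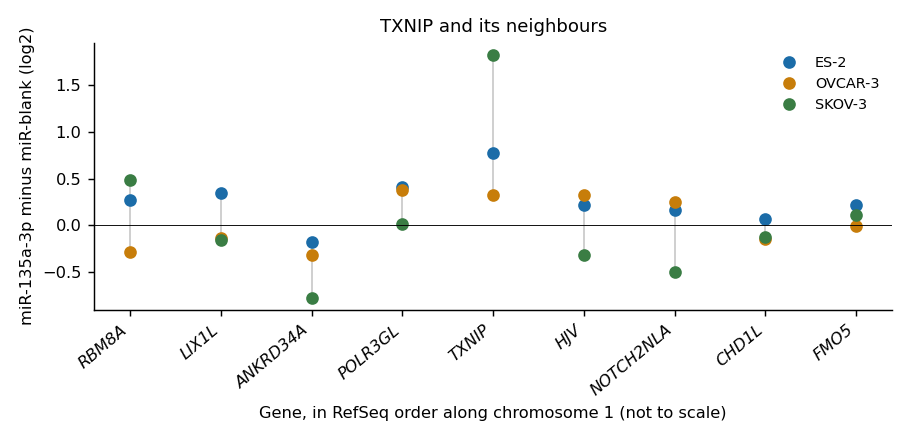
Difference between miR-135a-3p and miR-blank (log2, y axis) in each line (points) for TXNIP and its 4 named neighbours on each side, in RefSeq order along chromosome 1 and not to scale (x axis). The TXNIP points lie at 0.32 to 1.83, and the next highest SKOV-3 point is RBM8A at 0.48.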

How the data were processed

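Total RNA of 3 cell lines, each with miR-blank or miR-135a-3p, was labelled and hybridised to 6 Affymetrix arrays, 1 for each line and transfection. The deposited values are log2 signals, 1 for each of 53617 probe sets. The submitters' processing notes name Affymetrix Expression Console 1.4, Transcriptome Analysis Console 3.0 and RMA, with no role or order; the annotation's own build is not given in the sources used here. No scanner files, scan dates or batch labels were used, and precision is limited by having 6 arrays. No pair of arrays was identical.

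Of the probe sets, 16098 carried 1 gene symbol, 0 several and 37519 were unnamed here; all 16098 matched RefSeq by Entrez identifier. A gene was read from its probe set with the highest mean (779 symbols had more than 1). Genes with a mean of at least 5 were tested (8620) with limma 3.58.1 in R 4.3.3, transfection with the cell line as a block and lines with transfection as a block, adjusted by Benjamini-Hochberg. Replicate numbers are the cell lines, so the line pairs the samples. Nothing says the arrays of a line came from separate cultures. As no line and transfection has a replicate array, the residual of both fits is how the transfection difference varies between lines. The p-values rest on that spread and do not measure how a line's level varies between cultures. The procedure was tested on simulated data.

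The members and lists were chosen with earlier results of these data known. Named genes were, by rule, every alpha-arrestin, up to 4 members of each list by mean difference and up to 2 by range between lines, the 6 genes closest to TXNIP by each of 2 measures of likeness, and 4 neighbours on each side. Alternatives were 3 normalisations, the filter, the block, the variance trend, the probe set rule and each array or line left out. Promoter and miRNA sequences are from RefSeq, GRCh38.p14.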

Additional observations from a re-analysis of the deposited data

Results flagged for a closer look

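Among the pathway and marker genes that were tested, 3 ovarian carcinoma markers moved in opposite directions in 2 lines, each by a factor of 1.5 or more, and the difference between lines was not tested. KRT7, a simple epithelial keratin, had a difference of 1.03 in OVCAR-3 and -1.53 in SKOV-3. KRT8, the partner of KRT18, had 0.72 in OVCAR-3 and -0.80 in ES-2. PAX8, a Mullerian lineage factor, stood 0.63 above its control in ES-2 and had a difference of -0.68 in SKOV-3. That ES-2 control was at 4.17, just below the array median of 4.20. Below the limit for testing, SGK1 (-0.62 in ES-2, 0.66 in OVCAR-3, and 1.43 for SKOV-3) and LUM (0.63 in OVCAR-3, and -3.22 for SKOV-3) also had opposite directions of that size.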

How the results depend on the processing

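The TXNIP difference between transfections stayed above 0 in every line and alternative run, with a mean of 0.96 to 1.002 over the normalisations and probe set choices and 0.55 to 1.299 with 1 line left out. Genes passing between transfections numbered 1 to 4 with 1 line left out: 2 without OVCAR-3 and 4 without SKOV-3. No listed gene passed under any alternative, and without the replicate block (cell line not in the fit) 1 gene passed, as with it. With 1 array left out, TXNIP in ES-2 minus OVCAR-3 was 1.33 to 2.31, in ES-2 minus SKOV-3 0.50 to 1.78 and in OVCAR-3 minus SKOV-3 -1.33 to -0.0472, and OVCAR-3 against SKOV-3 called 779 to 1366 genes, the lower counts without an OVCAR-3 array (793 and 779). ES-2 minus SKOV-3 passed under cyclic loess (1.21, limma adjusted p = 0.0444), with the mean over probe sets (1.28, 0.0354) and with the second TXNIP probe set, an alternative chosen after seeing the data (1.42, 0.0258); the cause was not tested. With 1 array for each line and transfection, a line's own difference has no replicate check, and signals near the array median, as for the second probe set in OVCAR-3, limit what can be resolved there.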
